A study of Homo sapiens with 9 samples.

Results

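The regions described here are ZNF143 peaks of the CTCF-AID line, in 2 lists that differ by 24 h of auxin: 34531 peaks without auxin (0 h) and 16392 with it (24 h), together 50923 of the 354101 peaks in the 9 deposited lists. They were chosen by their sample labels and position, taking every peak on chromosomes 1 to 22 and X of those 2 lists. A 0 h peak that overlapped a 24 h peak by at least 1 bp is called kept, a 0 h peak that overlapped none is called lost, and a 24 h peak that overlapped no 0 h peak is called new.

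ZNF143 is a zinc-finger transcription factor that binds DNA by sequence and is known mainly from gene promoters. CTCF, another zinc-finger protein, marks the borders of chromatin loops and domains, where it halts cohesin, the ring-shaped complex that extrudes loops and holds the subunit RAD21. ZNF143 peaks have been mapped at many CTCF and cohesin sites, so removing CTCF asks which ZNF143 peaks are still found without it. In the auxin-inducible degron system, CTCF carries a tag (AID) that the plant protein TIR1 recognises when auxin is present, and the tagged protein is then sent to the proteasome.

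All cells were HEC-1-B, a human line from a uterine adenocarcinoma. Both ZNF143 groups carried the CTCF-AID genotype: one had 0 h of auxin (IAA) and the other 24 h, at 500 µM in TIR1-expressing cells per the labels' protocol. The same cells had a CTCF library at each time, and unmodified HEC-1-B cells had ZNF143, CTCF and RAD21 libraries, which are used below to class sites and to compare the wild-type ZNF143 list with that at 0 h. ChIP-nexus, the assay, trims immunoprecipitated DNA with an exonuclease up to the bound protein, so that peaks are narrow. Each group was 1 library, so no difference between 0 h and 24 h has a replicate check and none was tested, and auxin cannot be told apart from anything else that differed between the libraries. Whether the CTCF-AID line is 1 clone is not given in the sources used here. CTCF protein was not measured in these files. The names of the 24 h peaks carry the letters KD after the antibody target, which no label explains.

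Read totals are not in the lists, so depth was described from the peaks themselves. The count of reads at each summit and the local background under it were solved from the deposited fold enrichment and −log10 p. This takes the fold as (count + 1) over (background + 1) and p as a Poisson tail, an assumption that no label states, so reads below are estimates. The median summit count was 17 reads at 0 h and 15 at 24 h, and the usual background was 13.5 and 12.1 reads per kb, a ratio of 0.894. Counts had a ceiling of 62 reads at 0 h and 58 at 24 h, reached by 3.39% and 5.51% of peaks. The CTCF lists of the same cells also shrank, from 30374 to 13865 peaks, and their usual background fell from 12.8 to 3.89 reads per kb, a ratio of 0.305. The wild-type ZNF143 list had a usual background of 5.98 reads per kb, so its counts are not on the scale of those at 0 h. Intervals below are exact (Clopper-Pearson) or, for differences, Newcombe 95% intervals. They cover counting error over peaks only, and neighbouring peaks are not independent.

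After 24 h of auxin, fewer than 1 in 2 of the 0 h ZNF143 peaks overlapped a peak again: 14908 were kept, 43.2% (42.6 to 43.7). The other 19623 were lost, a background share of 56.8% for every count of lost peaks below. At 24 h, 15064 peaks lay on a 0 h peak and 1328 were new, which is 8.1% of that list. Most 24 h peaks thus touched a 0 h peak, but the share of new peaks was 34.4% when an overlap of 50% of both peaks was asked for. The length covered by peaks fell from 3.57 to 1.74 Mb. Few peaks were split or merged: 223 of the 0 h peaks overlapped 2 or more 24 h peaks, and 75 of the 24 h peaks overlapped 2 or more at 0 h.

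Whether CTCF had been called at the site before auxin separated kept from lost peaks. Of the 0 h ZNF143 peaks, 19370 (56.1%) overlapped a 0 h CTCF peak. Of these, 6170 were kept, 31.9%, whereas 8738 of the 15161 peaks without CTCF were kept, 57.6%. The difference was −25.8 percentage points (−26.8 to −24.8). Sites with CTCF made up 67.3% of lost peaks and 41.4% of kept peaks. Wild-type RAD21, the cohesin subunit, gave almost the same split and lay at 67.4% of lost and 44.8% of kept peaks.

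The gap between sites with and without CTCF was wider once peaks of equal strength were set side by side. Among 0 h peaks of 16 to 20 reads, 15.4% of those with CTCF and 68.6% of those without were kept. At 21 to 25 reads the shares were 35.3% and 87.7%, and at 26 to 30 reads 61.3% and 95.1%. Only the sites of highest count, 51 to 62 reads, were kept alike, at 99.2% and 99.1%. In the strongest 10% by fold enrichment the shares with and without CTCF were 91.3% and 99.95%. Weighted to the counts of the peaks with CTCF, 64.9% of peaks without CTCF would be kept against the 31.9% seen, a difference of −33.1 points. Auxin was not the only contrast in which CTCF sites were found less often. Between the wild-type and 0 h ZNF143 lists, neither from auxin-treated cells, 26.9% of wild-type peaks were not found at 0 h. There, 69.4% of sites with wild-type CTCF were found at 0 h. At equal counts without it, 82.6% were found, a difference of −13.3 points. The wild-type and 0 h libraries also differed in line and in usual background, 5.98 and 13.5 reads per kb. The 2 contrasts are therefore not alike.

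**Figure D1:**
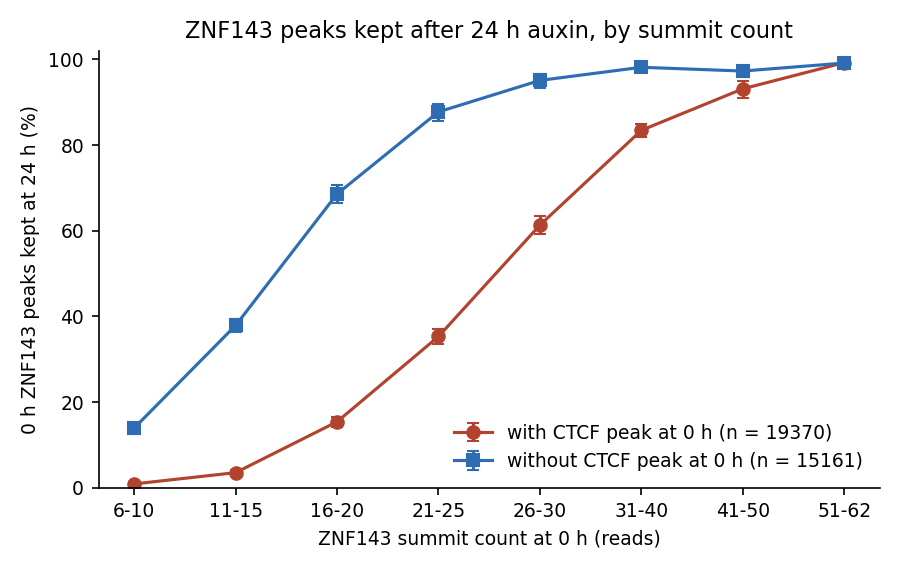
Share of 0 h ZNF143 peaks kept at 24 h (vertical, %) by the number of reads at the 0 h summit (horizontal), for sites with a 0 h CTCF peak (red circles) and without one (blue squares); bars are exact 95% intervals over peaks. From 6 to 50 reads the sites with CTCF lie below those without, at 15.4% against 68.6% at 16 to 20 reads, and both meet at 51 to 62 reads.

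Among sites that the unmodified cells also showed, the difference by CTCF was larger, though not at equal strength. Of 8169 peaks at 0 h that were found in wild type and lacked CTCF, 83.6% were kept, whereas of 18337 found in wild type and with CTCF, 32.8% were kept, a difference of −50.9 points (−51.9 to −49.8). Those without CTCF had a median of 27 reads and those with it 19, the reverse of the order over all 0 h peaks (15 and 19). Removing also any site with CTCF in wild type or at 24 h, or with RAD21, left 7170 peaks, of which 83.6% were kept. The peaks absent from wild type were weak, with a median of 11 reads against 21. They were kept in 15.7% of cases with CTCF and 27.3% without.

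A CTCF peak that was still called at 24 h went with little difference at equal ZNF143 strength. Over all counts, peaks with CTCF at both times were kept in 40.6% of 12897 cases and peaks with CTCF at 0 h only in 14.5% of 6473. The former were stronger, with a median of 22 reads against 13. At 16 to 20 reads both classes were kept alike, 15.4% and 15.5%, and at 26 to 30 reads they stood at 61.2% and 61.97%. In every other count group, sites with CTCF at both times were kept more often. The shares were 36.1% against 31.25% at 21 to 25 reads and 83.8% against 79.7% at 31 to 40. The widest gap was at 41 to 50 reads, 94.2% against 86.8%. CTCF summit counts were lower after auxin at kept and at lost ZNF143 sites. Where CTCF was called at 24 h, at 5232 kept and 7665 lost sites, its median count was 12 and 8 reads. At 0 h it was 59 and 42 reads over all kept and lost sites with CTCF. The usual background of the CTCF lists fell as well, from 12.8 to 3.89 reads per kb. These counts therefore do not show how far the CTCF signal at the sites changed.

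At sites without CTCF, those with RAD21 were kept more often. Among 0 h peaks without a CTCF peak, 74.1% of the 1058 with wild-type RAD21 were kept, against 56.4% of those without RAD21. The RAD21 sites of this class were stronger, with a median of 27 reads against 15. Among peaks with CTCF, 52.3% of the 524 that lacked RAD21 were kept, against 31.3% of those that had it, at a median of 19 reads in both. Those without RAD21 were narrower, 55 against 89 bp, and lower in rank by fold enrichment, 26.7 against 57.2 with 100 as the strongest, so their strength was not matched.

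ZNF143 and CTCF summits lay almost on top of each other where both were called. The median distance was 10 bp (quartiles 4 to 19), and 77.8% of the pairs were within 20 bp. Kept sites had a median of 9 bp and lost sites 11 bp. The share kept was 35.7% at 0 to 5 bp and 25.04% at 21 to 40 bp, then 59.7% at 61 to 80 bp, 73.7% at 81 to 150 bp and 59.5% of 168 sites beyond that. Within 60 bp most of these differences moved with strength: at 16 to 30 reads, 34.1% of sites at 0 to 5 bp and 33.2% at 21 to 40 bp were kept. Farther sites lay between those close to CTCF and those with none. At 16 to 30 reads, 62.2% of the 119 distant sites were kept (52.8 to 70.9), against 33.3% within 60 bp and 79.3% without CTCF. By distance, the shares at this strength were 65.9% at 61 to 80 bp, 77.1% at 81 to 150 bp and 46.5% farther out, over 41, 35 and 43 sites, so the share did not keep rising with distance. The distance of 60 bp was chosen after these values were seen.

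Kept peaks with CTCF were much weaker after auxin, and kept peaks without CTCF changed less. With CTCF, the median summit count was 30 reads at 0 h and 12 at 24 h, with a median ratio per site of 0.433 (quartiles 0.345 to 0.688), and 94.98% of sites had a lower count. Without CTCF it was 25 reads and 19 reads, with a ratio of 0.833 (0.692 to 0.935), and 84.6% were lower. Fold enrichment followed: its median went from 15.998 to 8.11 with CTCF and from 13.2 to 11.2 without. A weak site can be kept only if it is called again, so the ratios of weak sites lean upwards. Stronger sites are less touched by this. At 31 to 40 reads at 0 h, the ratio was 0.375 with CTCF and 0.742 without. At 51 to 62 reads both were 0.919, where the ceiling of the counts holds values together (the 24 h ceiling is 0.935 of that at 0 h).

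The kept sites with CTCF fell into separate bands. Of the 2563 with 31 to 50 reads at 0 h, 1846 (72.0%) had a 24 h count of at most 0.5 of that at 0 h, 497 (19.4%) had at least 0.7 of it, and 220 (8.58%) lay between. Of the 1574 such sites without CTCF, 6.10%, 66.6% and 27.3% fell in these classes. The limits of the bands were set after the values were seen.

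The sites in the 2 bands differed in shape and in CTCF signal. Sites with CTCF that dropped to 0.5 or less went from a median of 35 to 12 reads and from 141 to 69 bp in width. They had a median CTCF count of 65 reads, and a CTCF peak was still called at 96.9% of them at 24 h. Sites that held 0.7 or more were narrow at both times, 54 and 53 bp, with counts of 40 and 36 reads. Their CTCF count was 48 reads, 64.4% had a 24 h CTCF peak, and their median background was 2.73 reads at the summit against 0.918. The CTCF summit lay beyond 60 bp at 12.3% of them, against 0.758% of the sites that dropped. Read the other way, 70.1% of the 157 sites with 21 to 40 CTCF reads held 0.7 or more of their ZNF143 count. The share was 61.1% of the 36 sites with 0 to 20 CTCF reads and 30.7% of the 890 with 41 to 60. With 61 to 88 CTCF reads it was 6.22% of 1480 sites.

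**Figure D2:**
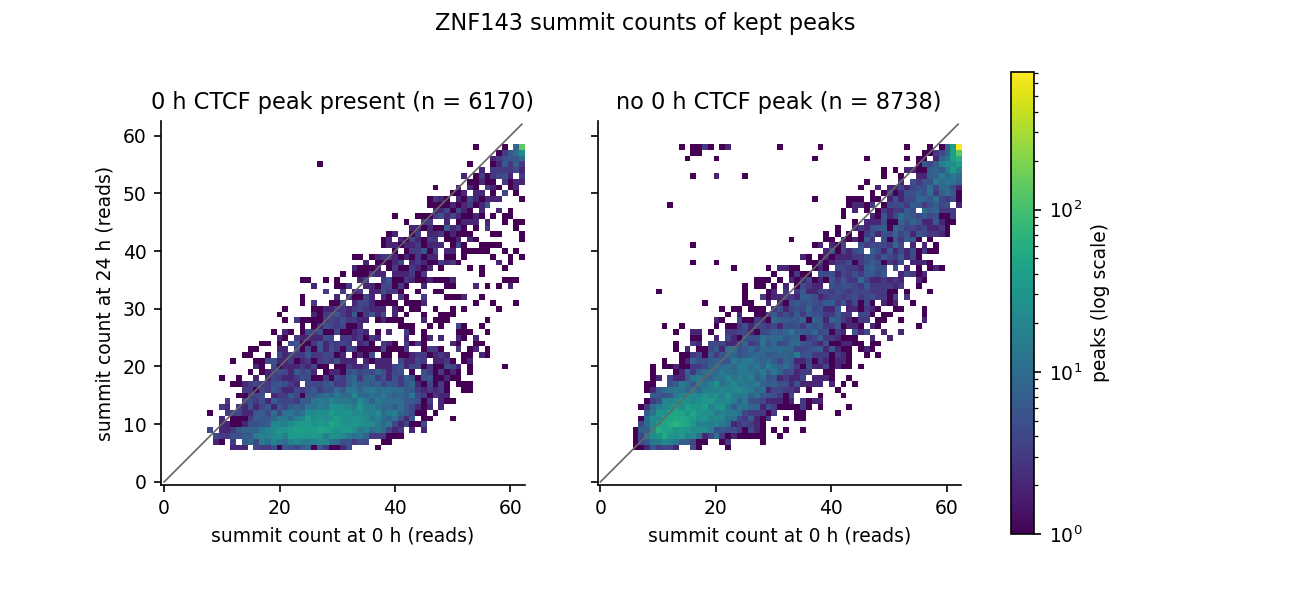
Summit counts of the kept ZNF143 peaks at 0 h (horizontal, reads) and 24 h (vertical, reads), for sites with a 0 h CTCF peak (left, n = 6170) and without one (right, n = 8738); colour is the number of peaks on a log scale and the line marks equal counts. With CTCF most sites lie in a low band near 12 reads at 24 h and fewer near the line, whereas without CTCF most lie just under the line.

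Lost peaks were narrow and kept peaks wide. The median width in the 0 h list was 122 bp for kept peaks (quartiles 82 to 175) and 64 bp for lost peaks (43 to 90). With the list in 10 classes of width, the share kept rose from 14.7% of the narrowest (31 to 35 bp) and 25.6% at 70 to 83 bp to 61.6% at 114 to 136 bp and 98.1% of the widest (184 bp or more). Width moves with strength in these lists, and the gap was smaller among sites of equal count that had CTCF. At 26 to 30 reads with CTCF, kept peaks had a median width of 121 bp and lost peaks 109 bp. Without CTCF the gap at that count stayed wide, 121 against 36 bp, over 676 kept and 35 lost peaks. Lost peaks without CTCF of 26 or more reads lay on a higher local background than kept ones, as given under other observations. Equal counts there were therefore not equal enrichment.

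Sites that were kept became narrower, mostly at CTCF. With CTCF the median width was 123 bp at 0 h and 59 bp at 24 h, and the median ratio per site was 0.552. Without CTCF it was 122 and 97 bp, with a ratio of 0.876. In the 24 h list, peaks shared with 0 h had a median of 74 bp and new peaks 36 bp, with no new peak wider than 162 bp.

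The rank of a peak by fold enrichment within its own list separated the classes in the same way. On a scale where 100 is the strongest, the median rank was 74.2 for kept and 36.2 for lost 0 h peaks. The strongest 10% of the 0 h list held 3339 kept peaks and 114 lost ones. New peaks lay low in the 24 h list, at a median rank of 19.99, and 91.7% ranked below 50. None of the 1328 was in the strongest 10%, which allows a share of up to 0.277%. Within the strongest 10% at 0 h, 91.3% of peaks with CTCF and 99.95% of those without were kept. In the rank class just above the middle of the list (50 to 60) the shares were 15.8% and 79.1%. In the weakest 10% the order turned: 29.5% of peaks with CTCF and 20.3% of those without were kept, and the upper quartile of background at the former was 7.80 reads.

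**Figure D3:**
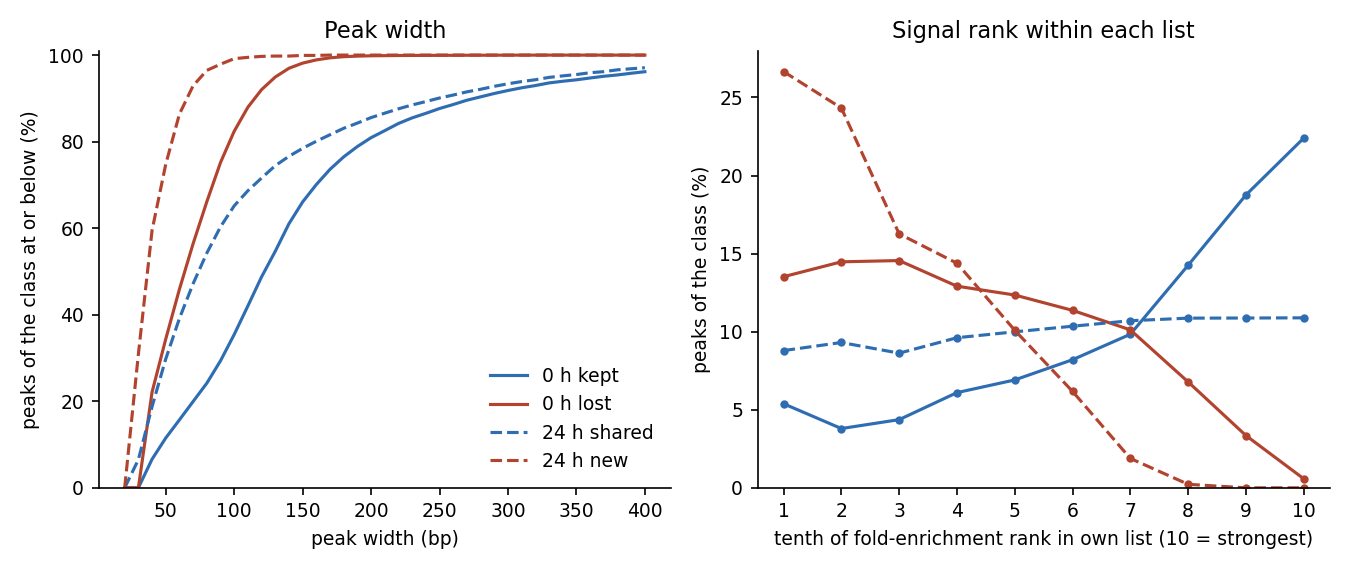
Left, cumulative share of peaks (vertical, %) at or below each width (horizontal, bp); right, share of each class (vertical, %) in each of 10 equal classes of fold-enrichment rank within its own list (horizontal, 10 is strongest), for kept and lost 0 h peaks (solid) and shared and new 24 h peaks (dashed). New peaks are the narrowest, with a median of 36 bp, and kept 0 h peaks the widest, with a median of 122 bp.

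With both lists held to their best 16392 peaks by −log10 q, the 0 h list began at a −log10 q of 16.2 and 16 reads at the summit. Of its peaks, 11152 were kept, 68.03%, and 5240 were lost, a background share of 32%. In the 24 h list 5064 peaks were new, a background share of 30.9%. Nearly all the lost peaks were CTCF and cohesin sites: 96.5% had a 0 h CTCF peak and 96.4% wild-type RAD21, against 49.2% and 53.5% of kept peaks. At equal list size, 52.1% of peaks with CTCF and 96.9% of those without were kept, a difference of −44.8 points (−45.9 to −43.8). The lost peaks were well supported in unmodified cells, since 98.1% overlapped a wild-type ZNF143 peak, as did 97.5% of kept peaks. Their median width was 98 bp and their median count 21 reads, against 140 bp and 33 reads for kept peaks.

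The make-up of the list turned over at equal size. Sites of 0 h CTCF made up 64.4% of the best 16392 peaks at 0 h and 38.4% at 24 h, and wild-type RAD21 sites 67.2% and 41.2%. Of the 5064 new peaks, 3736 (73.8%) lay on a weaker 0 h peak outside the shortened list, and 82.2% of those had no CTCF. Kept sites moved in rank by class. Those with CTCF had a median change of −13.5 percentile points and ranked lower at 24 h in 67.6% of cases. Those without CTCF had a median change of 10.3 points and ranked higher in 79.7% of cases. Ranks are relative within a list, so sites of 1 class rise when those of the other fall. A higher rank was not a higher count: in the full lists, 84.6% of kept sites without CTCF had fewer reads at 24 h. Across the 11152 kept peaks, Spearman's rho between the ranks was 0.553, a description across peaks of 2 libraries.

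The strongest ZNF143 peaks were mostly not CTCF sites at either time. Of the 1000 best peaks by −log10 q at 0 h, 9.5% had a 0 h CTCF peak, and all 1000 overlapped a peak of the full 24 h list. Of the 1000 best at 24 h, 7.6% had a 0 h CTCF peak, and all 1000 overlapped a 0 h peak.

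Single peaks show the contrast, given here by hg19 position; gene annotation and sequence of that build were not used here. The kept peak of highest fold enrichment, chr4:185265021-185265258, had no CTCF peak. Its fold enrichment was 33.3 at 0 h and 30.9 at 24 h, its count 59 and 49 reads, and its summit moved by 1 bp. The kept peaks that followed, chr2:224822025-224822231 and chr11:116127951-116128090, also lacked CTCF and had 60 and 56 reads and 52 and 45 reads at the 2 times. These sites were nearly unchanged in place.

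The lost peaks of highest enrichment all lay on CTCF summits. At chr10:125318981-125319130 the 0 h ZNF143 peak had a fold enrichment of 23.5 and 33 reads. The CTCF summit was 3 bp away with 64 reads, CTCF was still called there at 24 h, and the next 24 h ZNF143 summit was 55548 bp away. The lost peaks chr2:70844852-70844944 and chr12:125815594-125815680 had 35 reads each, with CTCF summits at 0 and 13 bp. All 3 had been found in wild type, with 15, 12 and 14 reads, in a library of lower usual background (5.98 against 13.5 reads per kb). Lost peaks without CTCF were weaker: the highest, chr12:125271191-125271321, had a fold enrichment of 19.5 and 31 reads, and chr1:30608774-30608835 had 16.9 and 23 reads.

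The kept peaks with CTCF of highest enrichment were narrow: chr7:159128576-159128638, 63 bp wide at both times with 44 and 30 reads, and chr22:23827862-23827913, 52 bp wide at both times with 49 and 43 reads. At chr22 the summit was at the same base at both times.

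Summits of kept peaks stayed in place to about the precision seen between libraries. The median distance between the 0 h and 24 h summit was 8 bp (quartiles 3 to 18). Between the wild-type and 0 h lists, whose usual backgrounds were 5.98 and 13.5 reads per kb, the distance was 9 bp (4 to 17). Shifts within 10 bp made up 57.1% of kept sites and 56.1% of the wild-type pairs, and shifts within 50 bp 96.1% and 96.7%. In both comparisons the paired peaks had to overlap and the nearest summit was taken, so peak width limits the shift. A summit that moved beyond its peak would count as a lost and a new peak. Of the kept summits, 47.0% (46.2 to 47.8) moved towards higher and 48.6% (47.8 to 49.4) towards lower coordinates, and the median signed shift was 0 bp. The 152 shifts over 100 bp, the longest of 428 bp, came from peaks with a median width of 210 bp.

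Shifts were slightly longer at CTCF. Over the 12839 sites found in all 3 ZNF143 lists, the median shift from 0 h was 8 bp both to 24 h and to wild type. At sites with CTCF it was 10 bp to 24 h and 8 bp to wild type, and at sites without CTCF 7 bp to both. At kept sites with CTCF, the ZNF143 summit lay a median of 9 bp from the 0 h CTCF summit before auxin and 12 bp after it. It was farther at 24 h in 55.6% of sites, nearer in 38.9% and equal in 5.53%. The median ZNF143 count of these sites also fell, from 30 to 12 reads. Among them, the median shift was 20 bp at 6 to 10 reads at 0 h (25 sites) and 5 bp at 51 to 62 reads (514 sites). Between these, it was 10 or 11 bp in each count group from 11 to 40 reads. At equal counts, sites with and without CTCF had 11 and 7 bp at 26 to 30 reads, and 10 and 6 bp at 31 to 40. Both had 11 bp at 11 to 15 reads, and at 51 to 62 reads the values were 5 and 6 bp. Whether fewer reads account for the longer distances was not tested.

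**Figure D4:**
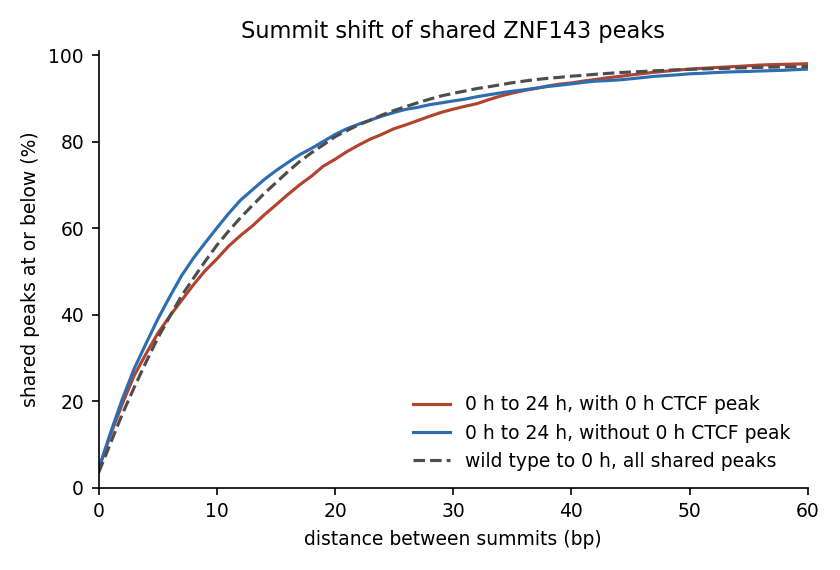
Cumulative share of shared ZNF143 peaks (vertical, %) whose summits lie within a given distance (horizontal, bp): 0 h to 24 h with a 0 h CTCF peak (red), without one (blue), and wild type to 0 h (dashed). The medians are 9 bp with CTCF, 8 bp without and 9 bp between wild type and 0 h. At 10 bp the curve with CTCF is lower, at 52.9%, against 60.04% without and 56.1% between wild type and 0 h.

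New peaks were weak, narrow and seldom seen in another list. Their median count was 10 reads, against 15 for shared 24 h peaks. Only 14.98% overlapped a wild-type ZNF143 peak, against 85.5% of shared peaks, and 7.68% had a 0 h CTCF peak. Of the 1328, 985 (74.2%) overlapped no wild-type ZNF143 peak and no CTCF or RAD21 peak of the lists used. The same gap was seen at low counts: among 24 h peaks of at most 10 reads, 12.4% of new and 77.7% of shared peaks were found in wild type. A part of the new peaks flanked older ones, since 32.3% had a 0 h summit within 500 bp. Lost peaks had a 24 h summit within 500 bp in 5.43% of cases. The 24 h list held fewer summits to find, 16392 against 34531, so the 2 shares are not on equal terms.

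The new peaks of highest enrichment were below the strongest sites of the list. The first, chr10:71987444-71987536, had a fold enrichment of 13.8 and 19 reads, lay 6020 bp from the next 0 h summit and overlapped a wild-type peak of 8 reads. The second, chrX:136520416-136520455, had 12.6 and 16 reads, lay 85 bp from a 0 h ZNF143 summit and overlapped a 0 h CTCF peak. The third, chr12:25857784-25857856, had 12.0 and 16 reads and lay 162983 bp from the next 0 h summit. The chrX and chr12 peaks also overlapped wild-type ZNF143 peaks, of 7 reads each.

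Loss was spread over every chromosome but not evenly. The share kept ranged from 32.5% on chromosome X (29.3 to 35.7) and 34.1% on chromosome 4 to 48.9% on chromosome 16 and 52.7% on chromosome 19 (50.6 to 54.8). Sites with CTCF were kept less often than sites without on 23 of 23 chromosomes. The spread lay mainly in the sites with CTCF, which were kept in 17.1% of cases on chromosome X and 38.5% on chromosome 19. Sites without CTCF ranged from 50.2% on chromosome 18 to 63.1% on chromosome 19. Over the 23 chromosomes, Spearman's rho of the share kept was 0.968 with the share kept at CTCF sites, 0.253 with that at other sites and −0.720 with the share of peaks that had CTCF. The shares at CTCF sites and at other sites are each a part of the share over all peaks, so the rhos with them are not independent of it. These points share 2 libraries and are a description only.

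Strength of the 0 h peaks moved with this order. The median count of peaks with CTCF had a rho of 0.923 with the share of them kept. At 16 to 30 reads the order did not hold: with CTCF, 36.7% were kept on chromosome X, 29.6% on chromosome 4 and 28.5% on chromosome 19. Without CTCF at that strength, chromosome 19 had 64.7% and chromosome 13 had 92.7%. At equal list size the shares ran from 56.7% on chromosome 18 to 75% on chromosome 19.

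**Figure D5:**
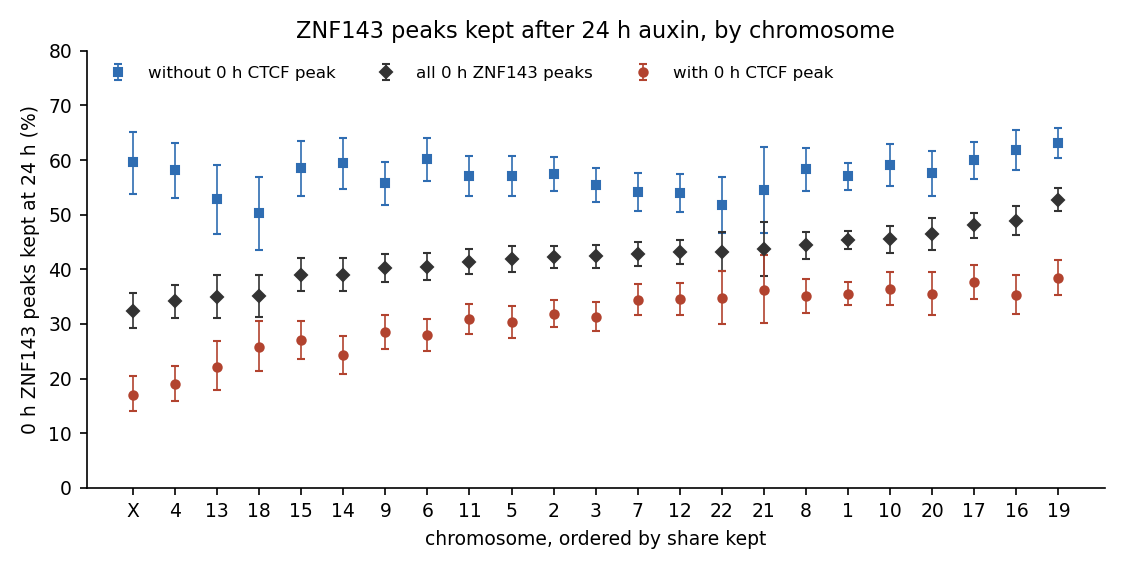
Share of 0 h ZNF143 peaks kept at 24 h (vertical, %) on each chromosome (horizontal, ordered by the share over all peaks), for all peaks (black), those with a 0 h CTCF peak (red) and those without (blue); bars are exact 95% intervals over peaks. Red points lie below blue ones on all 23 chromosomes, and they climb from 17.1% on X to 38.5% on 19.

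At the scale of 1 Mb, 2802 bins held a 0 h peak. All 0 h peaks were lost in 375 bins (13.4%), which held a median of 2, and all were kept in 53 (1.89%). Among the 801 bins with at least 15 peaks, the median share kept was 46.4% (quartiles 37.5 to 53.6). The lowest was chrX:114000001-115000000, where 1 of 17 peaks was kept and all 17 had CTCF, at a median background of 2.03 reads. The highest was chr11:51000001-52000000, with 44 of 46 kept, and 38 of the 46 had CTCF. The local background there had a median of 5.57 reads at the summit. Both bins exceed the 0.691 over all 0 h peaks. The next highest, chr6:58000001-59000000, kept 17 of 19 peaks, and 17 of the 19 had CTCF. Chromosome 6 from 28000001 to 29000000 kept 15 of 17 peaks with 1 CTCF site and a background of 0.42 reads.

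Over all counts, clustered peaks were kept more often. Another 0 h summit lay within 500 bp of 16.3% of kept and 7.85% of lost peaks. With CTCF, 65.3% of peaks with a neighbour within 500 bp were kept, and 15.3% of the most isolated ones, beyond 100 kb. The median counts were 30 and 14 reads. At 16 to 30 reads these shares were 53.8% and 30.4%. Without CTCF at that strength the order was the opposite, 70.7% and 91.2%. The 85 densest bins, with 42 or more peaks, kept 56.7% of their peaks, against 45.9% in the other 716 bins of at least 15 peaks. The densest bins also had fewer CTCF sites, 49.3% of peaks against 53.8%, and the bins were not matched for strength.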

How the data were processed

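The authors deposited 1 narrow-peak list per library. The submitters' processing notes name cutadapt 2.10, Bowtie2 2.3.5.1, SAMtools 1.12, MACS2 2.2.7.1, deepTools and the build hg19 (GRCh37). Settings, filters and pooling are not given in the sources used here. The deposited score repeats the −log10 q, multiplied by 10 and cut to a whole number. The deposited ratio is the authors' fold enrichment at the summit, read by assumption as (count + 1) over (background + 1), with p as a Poisson tail. Deposited −log10 p and −log10 q values are per peak, and the deposited summit is an offset in bp.

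Chromosomes 1 to 22 and X of 7 lists were used. Count and background were solved from fold and −log10 p, within 0.002 in 100% of peaks; this step was added after the values were seen. Ranks were set within a list. Overlap and solving were tested on known answers (0 of 403 and 0 of 1979 wrong). Where several peaks overlapped, the nearest summit was paired. Python 3.11.15, numpy 2.4.6, pandas 2.3.3 and scipy 1.17.1 were used. Named peaks are the 3 of highest fold in each of kept, lost and new and the 2 highest kept and lost with and without CTCF, outside chromosome 8. Members, classes and limits were chosen with earlier results of these data known. Gene lists, gene starts and motifs were not analysed here, since the reference tables are of another build.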

Additional observations from a re-analysis of the deposited data

Results flagged for a closer look

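Sequences other than chromosomes 1 to 22, X and Y entered no comparison, and both lists held peaks there, above the 3 that a count of 0 allows: 333 at 0 h and 244 at 24 h. Of the 333, 194 were kept (58.3%, 52.8 to 63.6). Their median local background was 2.63 reads at the summit at both times, against 0.691 at 0 h and 0.647 at 24 h on chromosomes 1 to 22 and X.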

How the results depend on the processing

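Results were recomputed under 9 settings, 21 of the 56 values in settings added after the data were seen. In all, 21 values stayed within the interval of the reported one, 34 moved beyond it and 1 changed sign. The deficit of CTCF sites among kept peaks had the same sign in each setting in which it was computed. Under reciprocal overlap of 50%, 31.1% of 0 h peaks were kept and 34.4% of 24 h peaks were new. The gaps between kept and lost were 50 bp in width and 34.9 in rank, the median shift was 7 bp, the CTCF difference −29.9, the chromosome range 15.7 and the wild-type difference 14.5 points. With the same number of peaks by −log10 q, the values were 68.03% kept, 30.9% new, 42 bp, 31.7 in rank and −44.8 points for CTCF. There the difference in the share found in wild type changed from 16.5 to −0.648 points. With the same number by fold enrichment, 65.2% were kept and 33.7% new. At a −log10 q of at least 5, 42.3% were kept and 7.63% new, with −28.6 points for CTCF and 15.1 for wild type. Summits within 100 bp gave 9.34% new, and ranking by −log10 q a gap of 41.9. Using only 0 h peaks found in wild type gave 48.4% kept, −50.9 points for CTCF and a chromosome range of 25.97. Without peaks at the highest count, the values were 41.2% kept, 53 bp, 37.1 in rank, −23.5 points for CTCF, a range of 15.2 and 15.3 points for wild type. Without peaks of 3 or more background reads, they were 41.7% kept, 9.68% new, 40.6 in rank and −26.8 points for CTCF. Motif shares were not run, as no genome of the build was at hand. No paired analysis was possible because each group held 1 library; for the same reason no replicate could be left out. The weakest 24 h peak listed had 6 reads. A lost peak is one that no called 24 h peak overlapped, which need not mean that no reads were left there.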

Other observations

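Peaks on a high local background behaved apart from the rest. At 0 h, 1223 peaks (3.54%) had a solved background of 3 reads or more at the summit. Their median count was 51 reads but their median rank by fold enrichment only 10.8, and 82.6% were kept. Among them 86.3% of sites with CTCF and 78.5% of the other sites were kept, the opposite order to the list as a whole. Strong peaks without CTCF were seldom lost: 89 with 26 or more reads were, against 4305 kept. The lost ones had a median width of 36 bp and a median background of 8.01 reads, against 202 bp and 1.40 reads for the kept ones.

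The few sites with a CTCF peak at 24 h but not at 0 h were of the same kind. Of these 70 ZNF143 peaks, 78.6% were kept (67.1 to 87.5). Their median width was 36 bp and their median rank 3.38, at a median of 41.5 reads.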
